A study of Mus musculus with 26 samples.

Results

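The 42 miRNAs described here carry numbers from miR-6896 to miR-7094, a block that holds mostly miRNAs predicted to be mirtrons. They were chosen by their level: an entry of the count table was kept when its name fell in this number range and its raw counts over 26 libraries came to at least 100. Of the 1915 entries in the table, 401 fell in the range, 103 of those had no read, and 42 reached the threshold. The lowest members were miR-6906-5p with 100 counts and miR-6930-5p with 115, and the highest entries left out were miR-6932-3p with 99 and miR-6947-5p with 97. Levels are therefore given as a description.

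Small RNA was sequenced from hippocampal CA1, the part of the hippocampus dissected in mice aged 3 months at the end of the experiment. The wild type vehicle group held 9 libraries from littermates given vehicle in drinking water, the transgenic vehicle group held 7 libraries from CamkdeltaC mice given the same vehicle, and the transgenic Vorinostat group held 10 libraries from CamkdeltaC mice given Vorinostat (SAHA, an inhibitor of histone deacetylases) in drinking water. Mice were treated for 4 weeks, starting at 2 months of age, with both sexes included and the transgenic mice randomised between drug and vehicle. Both transgenic groups carry the transgene, and no group received Vorinostat without it. Neither the promoter that drives the transgene nor the number of founder lines is stated in the labels. Whether every library came from its own animal is not stated either. The p-values therefore reflect how far libraries of a group differ, which may be technical.

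Most animal miRNAs are cut from a long primary transcript by the nuclease Drosha and then trimmed by Dicer to a pair of arms, named 5p and 3p after their place in the hairpin. A mirtron skips Drosha: the hairpin is a short intron, the spliceosome releases it, and after debranching Dicer cuts it. Tailed mirtrons are hairpins that occupy only one end of a longer intron, whose remaining part is trimmed away. Where the tail is on the 5′ side, the 3p arm runs up to the splice acceptor, the AG that closes the intron, and covers the pyrimidine-rich tract before it.

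RefSeq (GRCm38.p6) held a mature sequence for 38 of the 42 members, and no sequence was matched for miR-6952-3p, miR-6953-3p, miR-6913-3p and miR-6906-5p. Of the 38 sequences, 38 distinct seeds were found, the seed being bases 2 to 8, by which a miRNA pairs with its targets. No member shared its seed with another member, and 7 shared one with an entry that is no member. These partners had few reads: miR-6927-3p, with the seed of miR-6945-3p, had 2 counts in all, and miR-6992-3p, with the seed of miR-7015-3p, had 0. No member sequence was near-identical to that of another entry. Seeds and sequences were compared only among entries with a RefSeq mature sequence, so the 4 members and other entries without one were not covered. How reads that match several sequences were counted is not known. The mature sequences below are those of the 16 members whose values are given in full, 5′ to 3′, with the seed in capitals.

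miR-6944-3p: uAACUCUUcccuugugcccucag
miR-7080-3p: cAGGCUCAccccuccguucccu
miR-7080-5p: gUAGGAGCuggagguggguuugg
miR-6945-3p: uCUGAGCUcugcccuucccau
miR-6899-3p: uUGUCCUUcugugucuucugcag
miR-7015-3p: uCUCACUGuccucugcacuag
miR-6896-5p: uUUGUAGGcgacgagaacccgu
miR-7043-3p: aCUGUGCCucucuguuuucag
miR-7093-3p: uUUCCAUCugucauccugcag
miR-7073-5p: uGGGGGAAuugaaagacuauga
miR-6994-3p: aACGAUCUucuccgucuuugc
miR-7044-3p: aUGCAGCCccgacccucacag
miR-6906-3p: gAAUUCCGgucuccucuccag
miR-6966-3p: uGCUGUGUgcuuccucugcag
miR-6989-3p: uGUCCACUgucucuggucccag
miR-6940-3p: uUACCUUCcgugcuugcccgcag

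The 4 hairpins that follow show 2 of the ways in which these miRNAs sit in an intron, with the arms that are members in capitals. Mir6944, Mir7080 and Mir6958 begin with gu and end with ag, the bases of a splice donor and a splice acceptor, and each fills a whole annotated intron. Mir6945 begins with ca and ends with ag, and fills only the 3′ end of its intron.

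Mir6944: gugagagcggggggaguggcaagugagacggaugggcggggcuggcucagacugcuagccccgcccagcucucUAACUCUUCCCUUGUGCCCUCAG
Mir7080: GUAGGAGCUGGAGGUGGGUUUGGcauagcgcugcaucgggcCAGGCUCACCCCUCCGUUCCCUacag
Mir6958: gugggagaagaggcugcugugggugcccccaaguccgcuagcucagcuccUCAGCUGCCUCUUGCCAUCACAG
Mir6945: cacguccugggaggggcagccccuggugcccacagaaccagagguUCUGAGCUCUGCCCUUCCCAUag

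All 38 members with a sequence lay on the sense strand in an intron of a protein-coding transcript, in 37 host genes on 16 chromosomes (RefSeq positions and GENCODE M21 introns, both on GRCm38). Mir6944 (chr13:55477681-55477776, minus strand) was the whole of intron 9 of Dbn1, which encodes drebrin, an actin-binding protein of dendritic spines, and this intron is 96 bases long. Mir7080 (chr8:123130106-123130172, plus strand) was the whole 67-base intron 12 of Cpne7, which encodes a copine, a calcium-dependent membrane-binding protein. Mir6958 (chr15:89185465-89185537, minus strand) was the whole 73-base intron 17 of Dennd6b, which encodes a DENN domain protein. These were the 3 hairpins that filled an intron, among 34 distinct hairpins with RefSeq coordinates.

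A further 28 hairpins ended exactly on the last base of a longer intron, so 31 of 34 hairpins closed at a splice acceptor. Mir6945 (chr13:55507625-55507692, minus strand) took the last 68 bases of the 239-base intron 5 of Pdlim7, which encodes a PDZ and LIM domain protein of the cytoskeleton. The longest intron, 36269 bases in Klf7, a gene for a Krüppel-like transcription factor, ended with the hairpin of miR-6899-3p (mature arm chr1:64042438-64042460, minus strand). The median length of the host introns was 563 bases. The hairpins that did not close at the acceptor were those of miR-6977-3p in Ptprs, miR-6973b-3p in Gfra4 and miR-7010-5p in Gucy1a1. That of miR-6977-3p began on the first base of its intron and stopped 15 bases before the acceptor. RefSeq extends those of miR-6973b-3p and miR-7010-5p past the intron. In 7 of the 38, another annotated transcript keeps the region as exon, among them both arms of miR-7080 in Cpne7 and miR-6945-3p in Pdlim7.

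**Figure D1:**
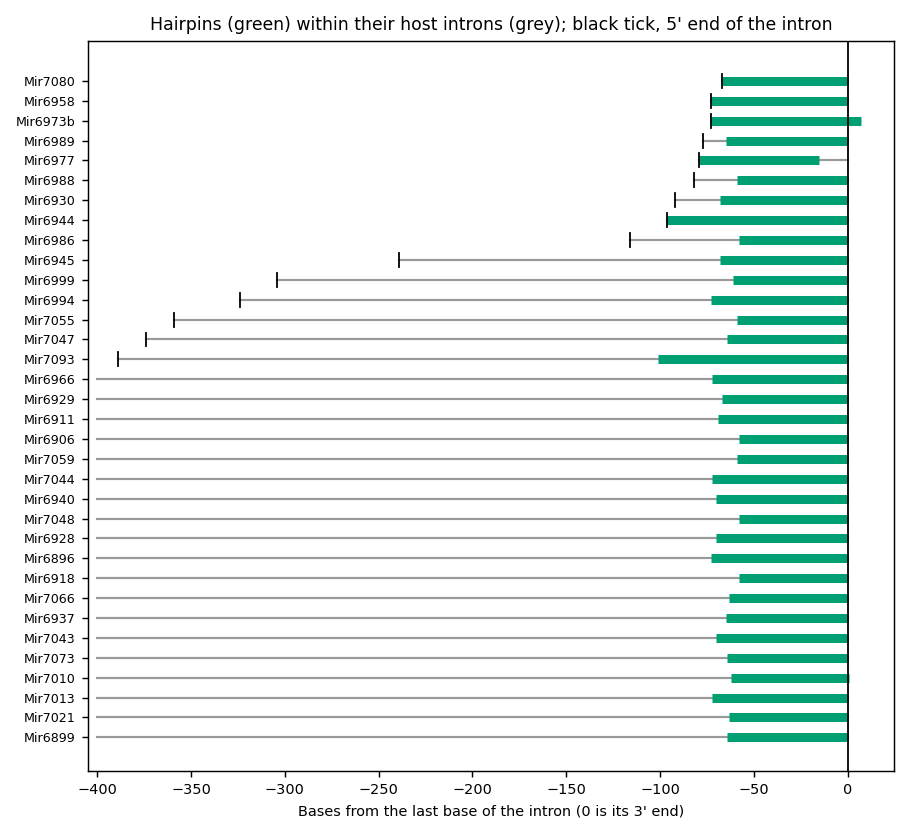
Each line is one of the 34 hairpins with RefSeq coordinates; the x axis gives bases from the last base of the host intron, the hairpin is green, the intron is grey (drawn to at most 400 bases) and a black tick marks its 5′ end. The green bars end at 0 for 31 hairpins, and 3 of them (Mir7080, Mir6958 and Mir6944) also start at the tick.

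Several host genes encode neuronal proteins. Slc17a7, host of miR-7055-3p, encodes a vesicular glutamate transporter. Ncan, host of miR-7066-5p, encodes the brain proteoglycan neurocan. Other hosts are widely expressed: Cnot1, host of miR-7073-5p, encodes the scaffold of a deadenylase complex, and Patl1, host of miR-6994-3p, encodes an mRNA decay factor. Host transcripts were not measured in these libraries.

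The mature 3p members carried the end of the intron. Of 27 3p members with a sequence, 19 (70.4%) ended in AG and 19 ended on the last base of the intron, while 26 (96.3%) ended within 4 bases of it. In the sequences above, miR-6944-3p, miR-6899-3p, miR-7015-3p and miR-7043-3p end in ag, and miR-7080-3p stops 4 bases before the end of its intron. Among 505 3p entries of the table outside the number range, 11.1% ended in AG and 6.34% ended within 4 bases of an intron's end. Entries of the range that fell below the threshold looked like the members: 119 of 150 (79.3%) ended in AG. The median pyrimidine share of the 3p sequence was 71.4% in members, 72.7% in the range below the threshold and 54.5% in other entries. The median G share of the 5p sequence was 39.1% over 11 members, 45.5% over 165 entries of the range below the threshold and 27.3% in other entries. These features belong to the number range as annotated, and did not separate the members from its less abundant entries.

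Reads came mostly from the 3p arm. Of the 42 members, 30 were 3p arms, and these held 80.7% of the 20234 counts that the members had in all. The 42 members came from 40 hairpins, because both arms of miR-7080 and of miR-6906 reached the threshold. In 30 of the 40 hairpins (75%) the 3p arm had more counts, against 169 of 345 other hairpins (49.0%) that also had an arm of at least 100 counts. The dominance was nearly complete in many: 23 hairpins had over 90% of their counts on the 3p arm and 9 had under 10%.

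The most abundant hairpin, miR-6944, had 2934 counts on the 3p arm and 4 on the 5p arm, a 3p share of 99.9% (exact binomial 95% interval 99.65 to 99.96%). miR-6896 was the reverse, with 813 counts on the 5p arm and 1 on the 3p arm. miR-7073 likewise had 565 counts on the 5p arm and 0 on the 3p arm. These intervals and counts cover counting error only, since reads without molecular identifiers are not independent molecules.

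miR-7080 was the one abundant hairpin with many reads on both arms. Its 3p arm had 1887 counts and its 5p arm 1363, a 3p share of 58.1% (exact binomial 95% interval 56.3 to 59.8%). The share ranged from 15.7% to 70.2% over the 25 libraries with at least 10 counts. It averaged 60.0% ± 5.71 (SD, n = 8) in wild type vehicle, 58.8% ± 9.75 (n = 7) in transgenic vehicle and 50.7% ± 14.9 (n = 10) in transgenic Vorinostat. The Vorinostat mean includes the lowest share, 15.7% in transgenic Vorinostat 8, from 8 counts on the 3p arm and 43 on the 5p arm. The 3p arm led in 17 libraries and the 5p arm in 9.

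**Figure D2:**
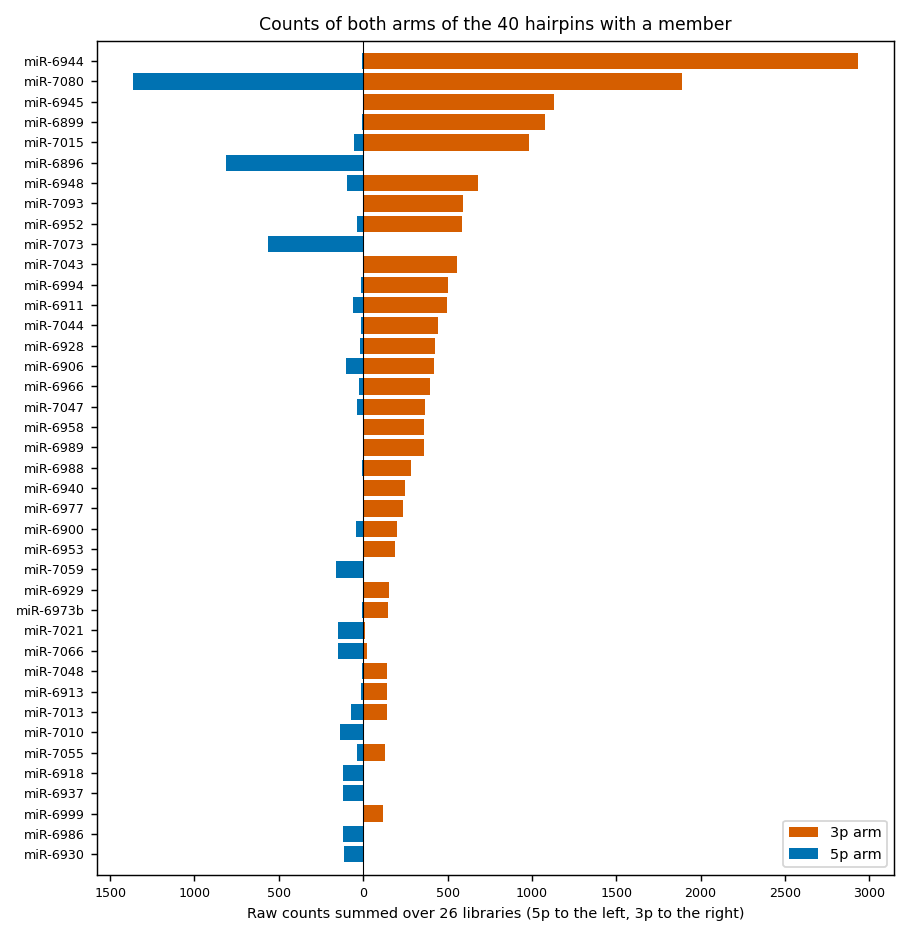
Bars give raw counts summed over 26 libraries for the 3p arm (orange, right) and the 5p arm (blue, left) of each of the 40 hairpins. Bars point right in 30 hairpins, and miR-7080 has long bars on both sides (1887 and 1363).

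The members were rare. Levels are given as CPM, counts scaled by library total and TMM factor to a total of 1e6, and the mature miRNAs are of similar length. The most abundant member, miR-6944-3p, ranked only 342 of all 1915 entries by summed counts. It was followed by miR-7080-3p (1887 counts), miR-7080-5p (1363), miR-6945-3p (1132), miR-6899-3p (1078), miR-7015-3p (983), miR-6896-5p (813), miR-6948-3p (681), miR-7093-3p (591) and miR-6952-3p (583). Next came miR-7073-5p (565), miR-7043-3p (555), miR-6994-3p (504), miR-6911-3p (498), miR-7044-3p (446), miR-6928-3p (423), miR-6906-3p (417), miR-6966-3p (395), miR-7047-3p (368) and miR-6958-3p (361). Then miR-6989-3p (359), miR-6988-3p (284), miR-6940-3p (247), miR-6977-3p (237) and miR-6900-3p (200) completed the 25 members that passed the filter on low counts.

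The other 17 did not pass it: miR-6953-3p (187), miR-7059-5p (162), miR-6929-3p (155), miR-6973b-3p (150), miR-7021-5p (149), miR-7066-5p (147), miR-7048-3p (142), miR-7013-3p (141), miR-6913-3p (141), miR-7010-5p (136), miR-7055-3p (129), miR-6918-5p (121), miR-6999-3p (119), miR-6937-5p (119), miR-6986-5p (117), miR-6930-5p (115) and miR-6906-5p (100). Reads were found in every library for 15 members and in at least 25 libraries for 27.

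Library depth sets what can be seen of such rare miRNAs. Totals ran from 585188 to 24767468 counts. The library wild type vehicle 1 was the shallowest: it held 96 counts of members, so that 1 count there equalled 2.08 CPM, and 3 counts, the floor for a miRNA without a read, equalled 6.24 CPM. In that library 19 members had no read and 19 stood above every other wild type library. It also stood apart in cell type markers: the 5 neuron miRNAs (miR-124-3p, miR-128-3p, miR-9-5p, miR-132-3p and miR-138-5p) summed to 196640 CPM there, against 308047 to 469482 CPM in the other libraries, and all 5 were read in every library. Erythrocyte markers were higher there, at 2033 CPM against at most 1228 CPM elsewhere. Lower were those of microglia and leukocytes (77.0 against at least 243 CPM), endothelium (3094 against at least 4334) and choroid plexus (354 against at least 421). Those of oligodendrocytes and of heart and muscle lay within the range of the other libraries. Group values are therefore also given without it.

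miR-6944-3p had a lowest, median and highest level of 2.08, 10.3 and 14.6 CPM in wild type vehicle, 5.92, 8.70 and 14.01 CPM in transgenic vehicle, and 5.18, 9.51 and 15.3 CPM in transgenic Vorinostat. The group means were 9.82 ± 3.28 CPM (SD, n = 9), 9.52 ± 3.31 CPM (n = 7) and 9.99 ± 3.15 CPM (n = 10). The 3 groups overlapped over nearly their whole range, and the 2.08 CPM was 1 read in wild type vehicle 1.

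miR-7080-3p had a lowest, median and highest level of 0, 6.89 and 9.03 CPM in wild type vehicle, 2.73, 6.76 and 8.97 CPM in transgenic vehicle, and 2.34, 4.18 and 8.85 CPM in transgenic Vorinostat. Its partner miR-7080-5p had 2.08, 4.71 and 5.78 CPM, then 1.97, 3.81 and 7.14 CPM, then 1.58, 4.83 and 13.7 CPM in the same order. Both arms overlapped between all groups. The median of the 3p arm was lowest in the Vorinostat group, whereas that of the 5p arm was highest there.

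miR-6945-3p averaged 6.54 ± 7.95 CPM in wild type vehicle (n = 9), 3.47 ± 1.35 CPM in transgenic vehicle (n = 7) and 4.63 ± 3.41 CPM in transgenic Vorinostat (n = 10). miR-6899-3p averaged 6.50 ± 8.75, 3.09 ± 1.67 and 4.53 ± 2.99 CPM in the same groups. miR-7015-3p averaged 5.27 ± 5.12, 2.87 ± 2.37 and 3.63 ± 2.69 CPM. In these 3 the wild type mean rested on one library, wild type vehicle 1, which read 27.05, 29.1 and 16.6 CPM from 13, 14 and 8 counts. Without it the wild type means were 3.98, 3.68 and 3.85 CPM (n = 8).

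miR-6896-5p, from an intron of Dst, which encodes the cytoskeletal linker dystonin, had a lowest, median and highest level of 0.744, 2.25 and 8.32 CPM in wild type vehicle. It had 0.923, 2.08 and 2.46 CPM in transgenic vehicle, and 2.28, 3.56 and 5.405 CPM in transgenic Vorinostat. The transgenic groups overlapped only between 2.28 and 2.46 CPM. miR-7043-3p, from an intron of Rassf4, a gene of the Ras association family, had 0.744, 1.57 and 14.6 CPM, then 0.910, 1.34 and 2.01 CPM, then 0.960, 2.29 and 5.38 CPM. Its Vorinostat libraries spread from within the vehicle range to well above it.

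**Figure D3:**
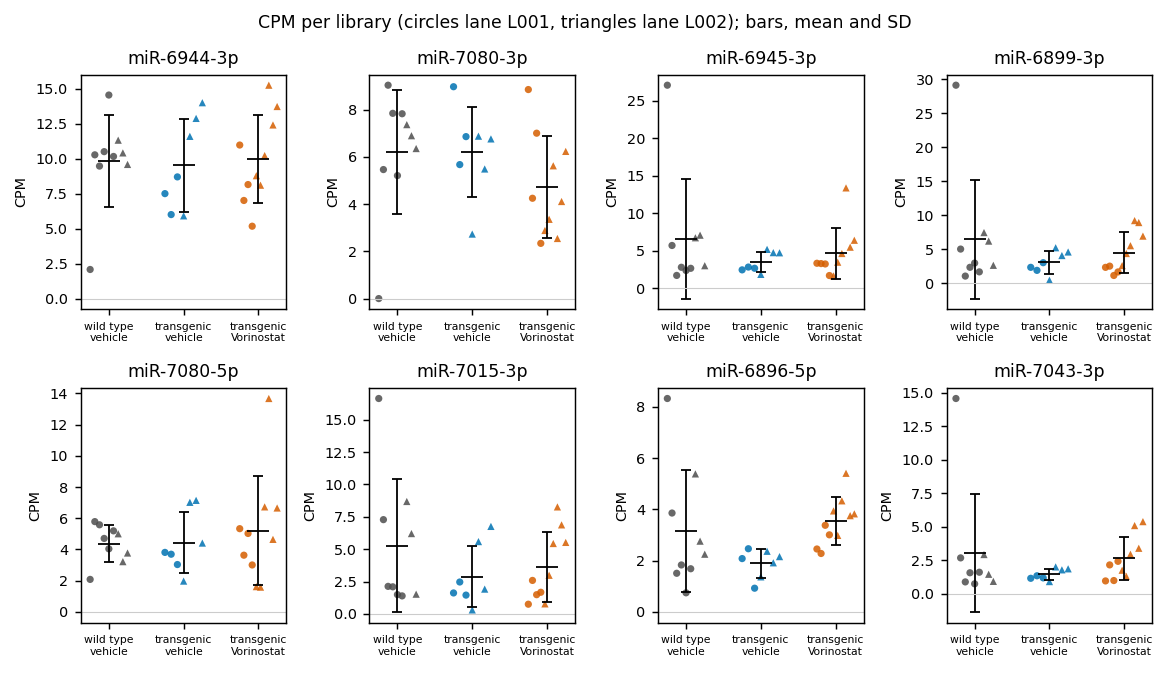
Each point is the CPM of one library for the 8 members with the highest mean CPM; circles are lane L001, triangles lane L002, and bars give the mean and SD of each group (n = 9, 7 and 10). The groups overlap in every panel, and wild type vehicle 1 stands far above the other wild type libraries for miR-6945-3p (27.05 CPM), miR-6899-3p (29.1 CPM), miR-7015-3p (16.6 CPM) and miR-7043-3p (14.6 CPM).

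Without wild type vehicle 1, the median coefficient of variation of a member within groups was 63.6%, and the part that Poisson counting alone gives at these counts was 30.4%. Added up, the 42 members reached 83.7 ± 46.1 CPM in wild type vehicle (n = 9), 63.6 ± 19.2 CPM in transgenic vehicle (n = 7) and 75.6 ± 31.4 CPM in transgenic Vorinostat (n = 10). Without wild type vehicle 1 at 199.7 CPM, the first of these was 69.2 ± 16.2 CPM (n = 8).

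The summed level also differed by sequencing lane, which the column headers give as L001 or L002. Without wild type vehicle 1, it was 57.2 ± 10.2 CPM in the 12 libraries of L001 and 82.2 ± 26.6 CPM in the 13 libraries of L002. The mean was higher in L002 for 34 of the 42 members, with a median ratio of 1.498. miR-7044-3p had the largest ratio of all members, 3.59, with 0.692 ± 0.317 CPM in L001 and 2.48 ± 1.201 CPM in L002. miR-7080-3p went the other way, at 6.61 ± 2.08 CPM and 5.17 ± 1.79 CPM.

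Within L001, the summed level was 63.7 ± 12.7 CPM in wild type vehicle (n = 5), 51.3 ± 2.71 CPM in transgenic vehicle (n = 3) and 53.6 ± 6.37 CPM in transgenic Vorinostat (n = 4). Within L002 it was 78.3 ± 19.9 CPM (n = 3), 72.9 ± 21.5 CPM (n = 4) and 90.3 ± 33.2 CPM (n = 6). Cell type markers were also summed by lane, and the ranges of the lanes overlapped for every list. Markers of endothelium (miR-126a-3p and miR-126a-5p) had a median sum of 5386 CPM in L001 (4334 to 6791) and 6752 CPM in L002 (4427 to 9473). Those of erythrocytes had 593 and 699 CPM, those of neurons 357282 and 384853 CPM, and those of oligodendrocytes 1164 and 1060 CPM. Those of microglia and leukocytes had 371 and 348 CPM, those of choroid plexus 587 and 592 CPM, and those of heart and muscle 436 and 437 CPM. Their part in the levels of the members was not tested, and in bulk tissue fewer cells of a type and less RNA per cell cannot be told apart.

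**Figure D4:**
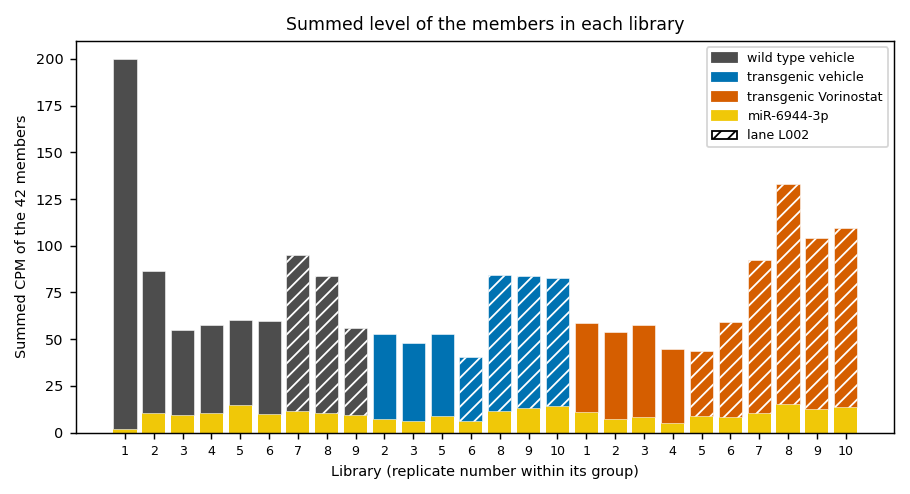
Bars give the summed CPM of the 42 members in each library, coloured by group, with miR-6944-3p in yellow and lane L002 hatched. Wild type vehicle 1 reaches 199.7 CPM and transgenic Vorinostat 8 reaches 132.9 CPM, while the yellow part stays between 2.08 and 15.3 CPM.

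Differences between the genotypes were read from transgenic vehicle against wild type vehicle. No member passed the test: by edgeR's quasi-likelihood test, adjusted over the 605 miRNAs that passed the filter, 0 of 25 tested members passed, where 0% of all 605 did. At an unadjusted p under 0.05 there were also 0 members, against 0.661% of the 605 higher and 1.49% lower. DESeq2 and limma voom also passed 0 of 605, with 18 and 7 miRNAs at an unadjusted p under 0.05, of which 1 and 0 were members. The log2 difference was above 0 for 7 of 25 members (28%), where 54.4% of all 605 were above 0. The median was -0.12 over the members and 0.03 over all 605, and the groups overlapped for every member. Without wild type vehicle 1, 8 of 25 members were above 0, where 48.0% of all miRNAs tested were. Within L001 it was 5 of 24 members, where 52.4% of all miRNAs tested there were above 0. Within L002 it was 17 of 33, where 50.4% were.

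The largest lower value among named members was that of miR-6966-3p, from an intron of Narfl, a gene for an iron-sulphur assembly factor. Its lowest, median and highest level was 0.132, 1.68 and 20.8 CPM in wild type vehicle and 0.607, 0.791 and 2.30 CPM in transgenic vehicle, a log2 difference of -0.92 (SE 0.63, edgeR adjusted p = 0.98). The 20.8 CPM was again wild type vehicle 1, with 10 counts, and without that library the wild type mean was 1.58 CPM (n = 8) and the log2 difference -0.49. Log2 differences were -0.61 (SE 0.55) for miR-6899-3p and -0.47 (SE 0.32) for miR-6896-5p, each with an edgeR adjusted p of 0.98. Both moved with single libraries: miR-6899-3p had -0.25 without wild type vehicle 1 and -0.40 without transgenic vehicle 6, and miR-6896-5p had -0.23 without wild type vehicle 7. Within L002 miR-6966-3p had 0.06.

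On the higher side, miR-6989-3p, from an intron of the kinase gene Map4k2, had a lowest, median and highest level of 0, 0.836 and 2.08 CPM in wild type vehicle. In transgenic vehicle it had 0.152, 1.32 and 2.43 CPM, a log2 difference of 0.60 (SE 0.52, edgeR adjusted p = 0.98). miR-7093-3p, from Armcx3, which encodes an armadillo-repeat protein of mitochondria, had a log2 difference of 0.26 (SE 0.39), and miR-6906-3p, from the testican gene Spock2, one of 0.13 (SE 0.37). The sign of both depended on the fit: with lane as a covariate miR-7093-3p had -0.09, and with the replicate number as a block miR-6906-3p had -0.14. Without transgenic vehicle 8 they had -0.02 and -0.13. The most abundant member, miR-6944-3p, had -0.11 (SE 0.24). Each of these was smaller than or close to its standard error.

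Vorinostat was compared with vehicle within the transgenic mice. The members lay more often above 0 than the rest of the table, but none passed the test. By edgeR's adjusted p, 0 of 25 members passed, where 0% of the 605 did. At an unadjusted p under 0.05, 1 of 25 members (4%) was higher and 0 lower, against 2.15% and 1.32% of the 605. The log2 difference was above 0 for 20 of 25 members (80%), where 49.3% of all 605 were above 0, with a median of 0.32 over the members and -0.01 over the 605. No test was made of the list as a whole. DESeq2 and limma voom also passed 0 of 605 miRNAs, with 26 and 16 at an unadjusted p under 0.05 and miR-6896-5p among them in both.

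The excess of members above 0 was smaller in L001 than in L002. Within L001 the log2 difference was above 0 for 12 of 24 members (median -0.02), where 42.6% of all miRNAs tested there were (median -0.05). Within L002 it was above 0 for 26 of 33 (median 0.37), where 49.8% were. With lane as a covariate it was above 0 for 19 of 25 (median 0.22), where 49.8% were. Leaving out wild type vehicle 1 and transgenic Vorinostat 8, the shallowest library of its group, gave 16 of 24 (median 0.14), where 46.5% were. With library totals alone as the scaling, the median of all 605 moved from -0.01 to -0.14, the share above 0 fell from 49.3% to 34.0%, and 17 of 25 members were above 0.

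The member with the smallest p was miR-6896-5p, whose values are given above. Its mean was 3.53 ± 0.93 CPM (n = 10) with Vorinostat and 1.89 ± 0.56 CPM (n = 7) with vehicle, a log2 difference of 0.85 (SE 0.31, edgeR unadjusted p = 0.0109, adjusted p = 0.836). All 10 Vorinostat libraries lay above the vehicle mean, yet the groups overlapped and the adjusted value missed the threshold. The log2 difference was 0.51 (SE 0.50) within L001 and 1.003 (SE 0.33) within L002. In wild type vehicle without library 1 the mean was 2.50 ± 1.49 CPM (n = 8).

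Replicate numbers shared by the transgenic groups were taken to pair libraries, from the data alone, as the labels do not say what a shared number means. Deviations of same-numbered libraries correlated at 0.26 to 0.67, but only 1 of 7 correlated best with its own number. Numbers and lanes ran together: in both transgenic groups 2 and 3 lay in L001, and 6, 8, 9 and 10 in L002. Number 5 lay in L001 with vehicle and in L002 with Vorinostat, and correlated at 0.67. The part of lane in these correlations was not tested. Between wild type vehicle and transgenic Vorinostat, same-numbered libraries correlated at -0.63 to 0.66, so the pairing is uncertain. A fit on the 7 shared numbers, with the number as a block, was added after the data were seen. In that fit 5 of 567 miRNAs passed (0.882%), 147 had an unadjusted p under 0.05, and 0 of 22 members tested passed. For miR-6896-5p it gave a log2 difference of 0.91 (SE 0.26, edgeR adjusted p = 0.0619), and for miR-7043-3p 0.79 (SE 0.29, adjusted p = 0.113). Of the 22 members, 18 were above 0, where 48.5% of all miRNAs tested were. An unadjusted p under 0.05 was found for 4, all of them higher: miR-6896-5p, miR-7043-3p, miR-6988-3p (0.80) and miR-7093-3p (0.56). Here 25.9% of all miRNAs tested had an unadjusted p under 0.05.

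miR-7043-3p and miR-6940-3p followed in the fit of all libraries. miR-7043-3p averaged 2.64 ± 1.58 CPM with Vorinostat and 1.46 ± 0.42 CPM with vehicle, a log2 difference of 0.80 (SE 0.43, edgeR adjusted p = 0.836). miR-6940-3p, from Cep170b, a gene for a centrosomal protein, had a lowest, median and highest level of 0, 0.597 and 1.29 CPM with vehicle and 0.247, 0.795 and 2.69 CPM with Vorinostat, a log2 difference of 0.80 (SE 0.44, adjusted p = 0.836). In both, 7 of 10 Vorinostat libraries lay above the vehicle mean.

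These 3 members were named for a lower value with Vorinostat. With Vorinostat miR-7080-3p averaged 4.72 ± 2.15 CPM and with vehicle 6.19 ± 1.90 CPM, so the log2 difference was -0.39 (SE 0.28, edgeR adjusted p = 0.836). Its partner arm miR-7080-5p had 0.17 (SE 0.33). miR-7044-3p, from Rasgef1a, a gene for a Ras exchange factor, had -0.39 (SE 0.53), and miR-6994-3p had -0.25 (SE 0.33). One library weighed on each of the latter pair: transgenic vehicle 9 read 4.72 CPM of miR-7044-3p, where the median of its group was 1.96 CPM, and transgenic vehicle 5 read 4.48 CPM of miR-6994-3p, where it was 1.60 CPM. Without transgenic vehicle 9 the log2 difference of miR-7044-3p was -0.03, and without transgenic vehicle 5 that of miR-6994-3p was 0.08. Leaving out other libraries moved miR-7044-3p to -0.60 without transgenic Vorinostat 7 and -0.73 without transgenic Vorinostat 10, miR-6994-3p to -0.38 without transgenic vehicle 2, and miR-7080-3p to -0.61 without transgenic Vorinostat 1. miR-6944-3p had 0.06 (SE 0.24).

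**Figure D5:**
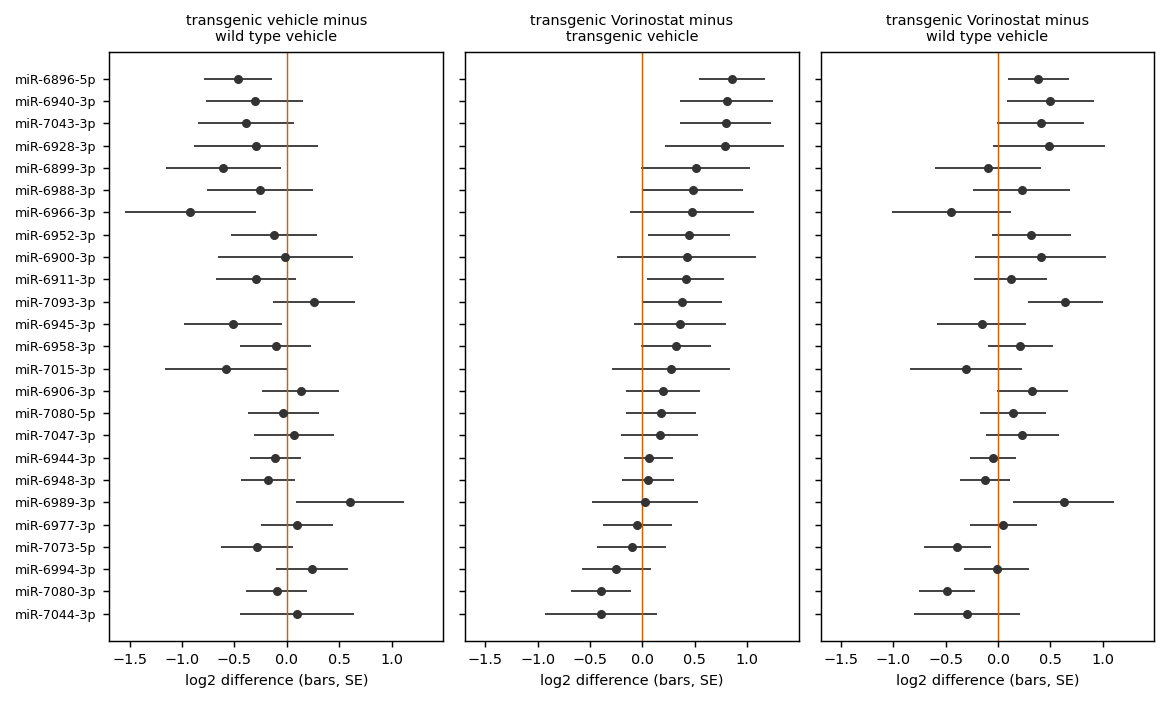
Points give the edgeR log2 difference of each of the 25 tested members in the 3 comparisons, with bars of 1 SE, ordered by the Vorinostat comparison; the line marks 0. Points right of 0 number 7, 20 and 15 of 25 from left to right, and no member passed the adjusted threshold in any panel.

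Transgenic Vorinostat against wild type vehicle shares libraries with both comparisons above, so its values are set beside them and add no independent support. By edgeR's adjusted p, 0 of 25 members passed, where 0% of the 605 did, and 0 had an unadjusted p under 0.05, against 1.65% of the 605 higher and 1.49% lower. DESeq2 and limma voom passed 0 of 605 here too, with 29 and 23 at an unadjusted p under 0.05. The log2 difference was above 0 for 15 of 25 members (60%), where 52.9% of the 605 were above 0, with a median of 0.14 over the members. Within L001 it was above 0 for 5 of 24, where 49.4% of all miRNAs tested there were. Within L002 it was above 0 for 25 of 33, where 51.7% were.

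miR-7093-3p had a lowest, median and highest level of 0, 1.53 and 2.45 CPM in wild type vehicle and 1.15, 2.21 and 6.04 CPM in transgenic Vorinostat, a log2 difference of 0.64 (SE 0.36, edgeR adjusted p = 0.9998). Here 8 of 10 Vorinostat libraries lay above the wild type mean. Log2 differences of 0.63 (SE 0.48) for miR-6989-3p and 0.39 (SE 0.29) for miR-6896-5p were the next named. On the other side were miR-7080-3p at -0.49 (SE 0.27), miR-7073-5p at -0.39 (SE 0.32) and miR-6966-3p at -0.44 (SE 0.57), while miR-6944-3p had -0.05 (SE 0.22). Single libraries moved several of these. miR-6966-3p had -0.04 without wild type vehicle 1, -0.17 without wild type vehicle 2, -0.67 without wild type vehicle 4 and -0.70 without wild type vehicle 9. miR-6989-3p had 0.28 without transgenic Vorinostat 10, and miR-7073-5p had -0.26 without wild type vehicle 2. miR-6896-5p had 0.24, 0.25 and 0.25 without wild type vehicle 3, 5 and 6 in turn. For miR-6896-5p the 3 comparisons thus gave -0.47, 0.85 and 0.39, and for miR-7080-3p -0.10, -0.39 and -0.49.

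The 17 members below the filter were fitted in a separate run that kept every miRNA with at least 100 counts, 690 in all. The log2 difference was above 0 for 12 of 42 members between transgenic and wild type vehicle (53.8% of the 690), for 32 of 42 between Vorinostat and vehicle (46.1%), and for 26 of 42 between Vorinostat and wild type (49.6%). None of the 42 passed edgeR's adjusted threshold in any of these. At an unadjusted p under 0.05 there was 1 member in the first (1.74% of the 690), 2 in the second (2.90%) and 0 in the third (2.90%). These were miR-6953-3p in the first, at 1.17 (SE 0.45), and miR-6896-5p and miR-7059-5p in the second, the latter at 1.14 (SE 0.49). miR-7059-5p, from an intron of Cln3, a gene for a lysosomal membrane protein, had a median of only 0.215 CPM in transgenic vehicle and 0.698 CPM in transgenic Vorinostat. Both miR-6953-3p and miR-7059-5p are named here because of their values.

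Other miRNAs known from earlier work to be made without Drosha did not pass the test either. Of 9 listed arms, 5 passed the filter on low counts: miR-877-5p, miR-877-3p, miR-1224-5p, miR-320-3p and miR-484. By edgeR's adjusted p 0 of 5 passed in each comparison, and their median log2 differences were -0.20, 0.17 and 0.02 in the order used above. The mirtron arms miR-877-3p, at 12.9 ± 3.06 CPM (n = 26), and miR-1224-5p, at 44.8 ± 27.7 CPM, had a higher mean than any member. miR-320-3p and miR-484, which are cut from other Drosha-independent hairpins, were higher still at 242 ± 76.4 and 137 ± 62.0 CPM. The other listed arms were lower: miR-877-5p, at 8.26 CPM, stood below miR-6944-3p at 9.80 CPM. miR-1224-3p, miR-702-3p, miR-702-5p and miR-320-5p had 0.359, 0.459, 0.105 and 0.0138 CPM.

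In the authors' deposited table of co-expression modules, 39 of the members were among the 674 miRNAs listed. The module named blue held 24 of them, 61.5% of the members, where it held 29.2% of all miRNAs listed. The module named turquoise held 14, or 35.9%, against 59.9% of all listed, and brown held 1. In the authors' deposited table miR-7015-3p had a membership score of 0.96 in blue, miR-6945-3p 0.95 and miR-6896-5p 0.87, on a scale that ends at 1. miR-6944-3p belonged to turquoise with 0.50. The arms of miR-7080 were placed apart, the 3p arm in turquoise with 0.69 and the 5p arm in blue with 0.26. The modules were built by the authors from these libraries and are not independent of them. The median ratio of L002 to L001 was 1.53 for members in blue and 1.45 for those in turquoise.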

How the data were processed

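Per the labels, small RNA of mouse CA1 was sequenced (TruSeq Small RNA kit, HiSeq2000, 50 bp single reads). FastQC 0.11.5 and the mm10 build come from the submitters' processing notes. The aligner and counter, not given in the sources used here, cannot be stated. Deposited by the authors were a table of raw counts per mature miRNA, a table of normalized values on a log2 scale whose method is not stated (not printed here), membership scores from -1 to 1 in co-expression modules, and p-values of membership, which the authors deposited beside them and which were not printed.

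Groups came from the genotype and agent labels. Counts were tested with edgeR 4.0.16 in R 4.3.3 (TMM, filterByExpr with a minimum count of 10 and total of 15, quasi-likelihood test, two-sided, 3 groups in one model, 3 contrasts). P-values were Benjamini-Hochberg adjusted over all 605 miRNAs, with 0.05 as threshold. The SE of an edgeR log2 difference was derived as its absolute value divided by the square root of the test's F statistic. It can depart from the p-value: between the vehicle groups miR-6994-3p had 0.24 (SE 0.34, edgeR unadjusted p = 0.95). CPM is counts over library total times TMM factor, per 1e6. The test was checked on simulated counts for the Vorinostat comparison, with 100 of 605 miRNAs changed by 1 log2 unit and 100 by 2. It recovered 64% of changes of 1 log2 unit and 98% of those of 2, with 5 false calls. Among miRNAs with a mean under 50 counts it recovered 41.5% and 96.3%. With so many miRNAs changed, the adjusted threshold is easier to reach than in a comparison where few change. No lane difference was simulated either, so these shares may be too high for the members. All tested members but miR-6944-3p, miR-7080-3p and miR-7080-5p had a mean under 50 counts. Alternatives used limma 3.58.1 and DESeq2 1.42.0.

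Each arm was assigned the GENCODE M21 intron on its strand whose ends lay nearest to those of its RefSeq hairpin. The identity of 1 host gene is not reported here. Named members were the 8 with the highest mean CPM and, per comparison, the 3 higher and 3 lower with the smallest unadjusted p, and miR-6944-3p. Members and lists were chosen with earlier results of these data known. For the 7 numbers shared by the transgenic groups, deviations of same-numbered libraries from the group means correlated at 0.26 to 0.67, all over 0.1. These libraries were taken as paired, from the data alone, though only 1 of 7 correlated best with its own number. All these numbers but 5 lay in the same lane in both groups. Each library held 585188 to 24767468 counts.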

Additional observations from a re-analysis of the deposited data

Results flagged for a closer look

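In groups of 7 to 10 libraries, a lowest or highest library was marked when its gap to the nearest other library took up an unusually large part of the range of its group (Dixon's test). Of 51 groups examined, for 16 members and the summed level, 14 had such a library. The mark is set at a chance rate of about 1 in 20 for a single group. The 51 groups share libraries, and some members were named for a mean in which wild type vehicle 1 counts. That rate is therefore no yardstick for the 14. Most of the 14 marks fell on wild type vehicle 1, the library of 585188 counts in all. There the summed level was 199.7 CPM, against 94.8 CPM in the next library. High values in it were 27.05 CPM for miR-6945-3p, 29.13 CPM for miR-6899-3p, 16.64 CPM for miR-7015-3p, 14.56 CPM for miR-7043-3p, 20.81 CPM for miR-6966-3p and 8.322 CPM for miR-7073-5p. miR-6940-3p had 2.081 CPM there, which is 1 read. Low values in the same library were 2.081 CPM for miR-6944-3p and 0 CPM for miR-7080-3p, where 3 counts would be 6.24 CPM. The other marked libraries were transgenic Vorinostat 8, with 13.35 CPM of miR-6945-3p and 13.67 CPM of miR-7080-5p, transgenic vehicle 9, with 4.721 CPM of miR-7044-3p, and transgenic vehicle 5, with 4.483 CPM of miR-6994-3p. Transgenic Vorinostat 8 held 3892718 counts in all, and the part of depth in these values was not tested.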

How the results depend on the processing

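No member passed in any alternative in which members were tested. A filter at a mean of at least 10 CPM kept 339 miRNAs and left no member to test. Over all miRNAs the count that passed moved from 0 only in the fit on 7 shared numbers with the replicate block. There it was 5, in the Vorinostat comparison. Leaving out single libraries in turn gave 0 to 0 in each comparison. With the replicate block over all 26 libraries 0 passed, and the log2 difference of miR-6896-5p with Vorinostat was 0.84; leaving out single libraries gave 0.74 to 0.93. The values whose sign turned were these. Between transgenic and wild type vehicle, miR-7093-3p gave -0.0933 with limma voom, -0.0759 with the replicate block, -0.0857 with lane as a covariate and -0.872 within L001. In that comparison miR-6906-3p gave -0.0137 with voom, -0.139 with the replicate block and -0.0379 within L001, and within L002 miR-6966-3p gave 0.0641 and miR-6944-3p 0.0856. With Vorinostat, miR-6944-3p gave -0.00424 with RLE scaling, -0.0712 with library totals, -0.0118 with DESeq2 and -0.0358 without wild type vehicle 1 and transgenic Vorinostat 8. Against wild type, miR-6966-3p gave 0.0412 with voom and 0.556 within L002, and miR-6944-3p 0.0961 within L002. Leaving out one library gave ranges across 0 for miR-7093-3p (-0.0193 to 0.444) and miR-6906-3p (-0.128 to 0.263) between vehicle groups, for miR-6994-3p (-0.379 to 0.0794) and miR-6944-3p (-0.0857 to 0.181) with Vorinostat, and for miR-6944-3p against wild type (-0.166 to 0.0319). The cause was not tested. Depth limits these values: only 15 of 42 members were read in every library. A threshold of 50 counts would give 73 members and one of 200 would give 25.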
